A study of Rattus norvegicus with 10 samples.

Results

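The growth hormone, insulin-like growth factor (IGF) and insulin receptor axis was followed through 10 genes in RNA of rat milk fat: the receptors Ghr, Insr, Igf1r and Igf2r, the adaptor Irs1, the ligand Igf1, and the binding proteins Igfbp2, Igfbp3, Igfbp4 and Igfbp5. They were taken by gene symbol from a table of 16748 genes, and all 10 were in it. Of these, 9 had reads in at least 1 library and entered the comparison. Environmental enrichment (EE) dams lived in a large cage of several levels furnished with toys, tubes and ramps, and standard-housed (SD) dams lived in ordinary laboratory cages. All dams were wild type Sprague-Dawley rats milked on postnatal day 10 (P10) under isoflurane after a period apart from the pups and an oxytocin injection, and had nursed standardized, cross-fostered litters. The fat layer, which carries RNA of the milk-making epithelium, gave 5 EE and 5 SD libraries, which the study calls biological replicates without saying which dams shared a cage.

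Growth hormone acts through its receptor, JAK2 and STAT5, and one classical outcome is transcription of Igf1. IGF-1 signals through the IGF-1 receptor, and insulin through the insulin receptor, both of which phosphorylate insulin receptor substrates such as IRS1 and so switch on the PI3K and AKT pathway, while IGF binding proteins hold IGFs in the extracellular space. In the mammary gland, IGF-1 from the stroma supports growth and survival of the epithelium, insulin is needed for milk synthesis, and IGFBP5 is known to increase when the gland involutes after weaning.

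Values below are normalized counts, that is, reads scaled by the authors with a factor for each library, recovered from the deposited log2 values. The scaled libraries did not have equal sums, which ran from 3.54e+07 in EE replicate 5 to 7.04e+07 in SD replicate 4. A read was worth 0.595 and 0.697 normalized counts in EE replicates 5 and 3, against 0.970 to 1.63 in SD libraries. The depth so recovered was 51769163 to 63837464 reads in EE libraries, against 43284041 to 70278583 reads in SD libraries, of which SD replicate 4 had the fewest. SD replicate 4 also had the lowest mean correlation with the other libraries (0.979, against 0.982 to 0.988 in the others), and the authors' mean normalized counts matched the 9 libraries without it. The members are therefore also compared without it. Log2 differences are on the deposited variance-stabilized scale, which compresses low counts, so for genes of few reads they are smaller than the log2 ratio of the means. The caseins took 54.8%, 54.0%, 44.1%, 61.0% and 40.4% of normalized counts in EE replicates 1 to 5, against 61.2%, 60.1%, 57.0%, 60.4% and 57.7% in SD replicates 1 to 5 (exact permutation test, two-sided, p = 0.0556). Without EE replicate 4, the EE library with the highest share, the exact permutation p was 0.0159. Without any other single library it was 0.0635 to 0.111. EE replicates 3 and 5 were the lowest of the 10. Markers of the luminal secretory epithelium summed to 1.45e+07 to 4.08e+07 normalized counts in EE libraries, against 3.27e+07 to 4.32e+07 in SD libraries, a sum made up mostly of milk protein genes. Elf5, a luminal transcription factor, had 56750.0 and 51785 normalized counts in EE replicates 3 and 5, against 42374 to 63293 in SD libraries, and Krt8, a luminal keratin, had 7004 and 7555, against 5497 to 9741 in SD libraries. Krt18 also lay within the SD range there. Epcam went the other way in these EE libraries, at 4122 and 4262, against 7272 to 10465 in SD libraries. So did Prlr, the prolactin receptor, at 1207 and 877, against 1750 to 2978, and Glycam1 also lay below every SD library. Because this is bulk RNA, fewer cells of a type and less RNA per cell cannot be told apart.

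The 250 bases before the transcription start that RefSeq gives are shown for the 3 receptors and the ligand on which the comparison turns (rat build GRCr8, whereas the expression values were made on rn6). The windows, each read 5′ to 3′ on the gene's strand, were Ghr at chr2:54432076-54432325 (minus strand), Insr at chr12:6128804-6129053 (minus strand), Igf2r at chr1:50526628-50526877 (plus strand) and Igf1 at chr7:24172282-24172531 (plus strand). Capitals mark a match, on either strand, to 1 of 5 motifs: the GC box (GGGCGG), the TATA box (TATAAA), the CCAAT box (CCAAT), a STAT5-type site (TTCNNNGAA) and a FoxO-type site (TGTTTAC), none of which overlapped another in these windows.
Ghr: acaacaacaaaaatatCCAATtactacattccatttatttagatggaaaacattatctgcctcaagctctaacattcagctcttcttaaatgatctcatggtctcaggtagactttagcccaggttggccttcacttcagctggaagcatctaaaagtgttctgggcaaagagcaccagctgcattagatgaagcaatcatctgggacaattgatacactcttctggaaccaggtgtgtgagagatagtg
Insr: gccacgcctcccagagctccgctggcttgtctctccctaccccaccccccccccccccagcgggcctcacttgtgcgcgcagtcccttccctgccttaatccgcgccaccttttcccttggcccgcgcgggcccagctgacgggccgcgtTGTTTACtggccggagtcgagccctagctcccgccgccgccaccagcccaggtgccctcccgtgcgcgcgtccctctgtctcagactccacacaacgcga
Igf2r: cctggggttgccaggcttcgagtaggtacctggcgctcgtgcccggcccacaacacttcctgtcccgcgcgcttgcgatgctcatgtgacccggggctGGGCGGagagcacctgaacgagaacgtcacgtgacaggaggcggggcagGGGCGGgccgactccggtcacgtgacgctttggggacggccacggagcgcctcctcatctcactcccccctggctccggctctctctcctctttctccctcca
Igf1: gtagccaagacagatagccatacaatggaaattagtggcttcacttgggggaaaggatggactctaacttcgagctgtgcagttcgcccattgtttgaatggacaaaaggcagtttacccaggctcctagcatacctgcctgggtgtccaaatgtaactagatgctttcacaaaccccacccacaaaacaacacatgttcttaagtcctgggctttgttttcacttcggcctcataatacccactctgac
The Ghr window held 1 CCAAT, the Insr window 1 TGTTTAC, and the Igf2r window 2 GC boxes, and none of the 5 motifs matched in the Igf1 window. Of 33469 RefSeq promoter windows of this length, 34% held CCAAT, 3.21% held TGTTTAC, 30.5% held GGGCGG, 12.9% held TATAAA and 7.67% held TTCNNNGAA. GC content was 40.8% for Ghr and 46.8% for Igf1, against 71.2% for Insr and 68% for Igf2r, and the median of all windows was 51.2% (quartiles 44% and 60%). These matches describe the letters of the windows and say nothing of binding.

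Ghr, the receptor of growth hormone (gene ID 25235), had 400.0, 501, 244, 463 and 361 normalized counts in EE replicates 1 to 5, against 613, 468, 515, 331 and 603 in SD replicates 1 to 5. The groups overlapped, with EE replicate 3 lowest and SD replicates 1 and 5 highest. Ghr averaged 394 ± 99.7 normalized counts in EE libraries and 506 ± 115 in SD libraries (SD, n = 5 each), a log2 difference of -0.31 (SE 0.19, 95% interval -0.72 to 0.10) with a limma adjusted p = 0.736. An exact permutation test gave p = 0.151. Without SD replicate 4 the SD mean was 550 ± 70.3 (SD, n = 4) and the log2 difference was -0.43 (SE 0.17, 95% interval -0.81 to -0.06), with an exact permutation p = 0.0317 and a limma adjusted p = 0.428. With SD replicate 4 kept, leaving out EE replicate 3 moved it the other way, to -0.18. Leaving out EE replicates 3 and 5, again with SD replicate 4 kept, moved it to -0.11.

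Insr, the insulin receptor (gene ID 24954), had 1601, 1656, 914, 1574 and 623 normalized counts in EE replicates 1 to 5, against 2442, 2146, 1731, 622 and 1881.5 in SD replicates 1 to 5. With all 10 libraries the lowest value was that of SD replicate 4, so the groups overlapped, but each of the 5 EE libraries lay below each of the other 4 SD libraries. Insr averaged 1274 ± 473 normalized counts in EE libraries and 1764 ± 694 in SD libraries (SD, n = 5 each), a log2 difference of -0.41 (SE 0.35, 95% interval -1.16 to 0.35, limma adjusted p = 0.831, exact permutation p = 0.302). Without SD replicate 4 the SD mean was 2050 ± 312 (SD, n = 4) and the log2 difference was -0.73 (SE 0.26, 95% interval -1.29 to -0.16, limma adjusted p = 0.404). The exact permutation p was then 0.0159, the smallest that 9 libraries allow. Of all genes tested without that library, 1.55% had every EE value below every SD value, against 0.485% with all 10. The 3 EE libraries other than replicates 3 and 5 held 1574 to 1656 normalized counts. Leaving out EE replicates 3 and 5 moved the log2 difference over the other 8 libraries to -0.0044. These 8 included SD replicate 4, at 622 normalized counts, whereas the other 4 SD libraries held 1731 to 2442. The log2 difference was -0.20 without EE replicate 5 alone and -0.27 without SD replicate 1.

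Igf2r, the cation-independent mannose 6-phosphate receptor (gene ID 25151), takes up IGF-2 for degradation and sorts lysosomal enzymes. It had 4745, 5828, 2419.6, 6117 and 2089 normalized counts in EE replicates 1 to 5, against 6204, 7385, 5025, 3496 and 3834 in SD replicates 1 to 5. EE replicates 3 and 5 were lowest and the groups overlapped. Igf2r averaged 4240 ± 1887 normalized counts in EE libraries and 5189 ± 1627 in SD libraries (SD, n = 5 each), a log2 difference of -0.36 (SE 0.31, limma adjusted p = 0.836, exact permutation p = 0.349). It was -0.49 without SD replicate 4 (SE 0.33, limma adjusted p = 0.631, exact permutation p = 0.27). With SD replicate 4 kept, it turned to 0.15 without EE replicates 3 and 5. Likewise it was -0.20, -0.15 and -0.22 without EE replicate 3, EE replicate 5 and SD replicate 2.

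**Figure D1:**
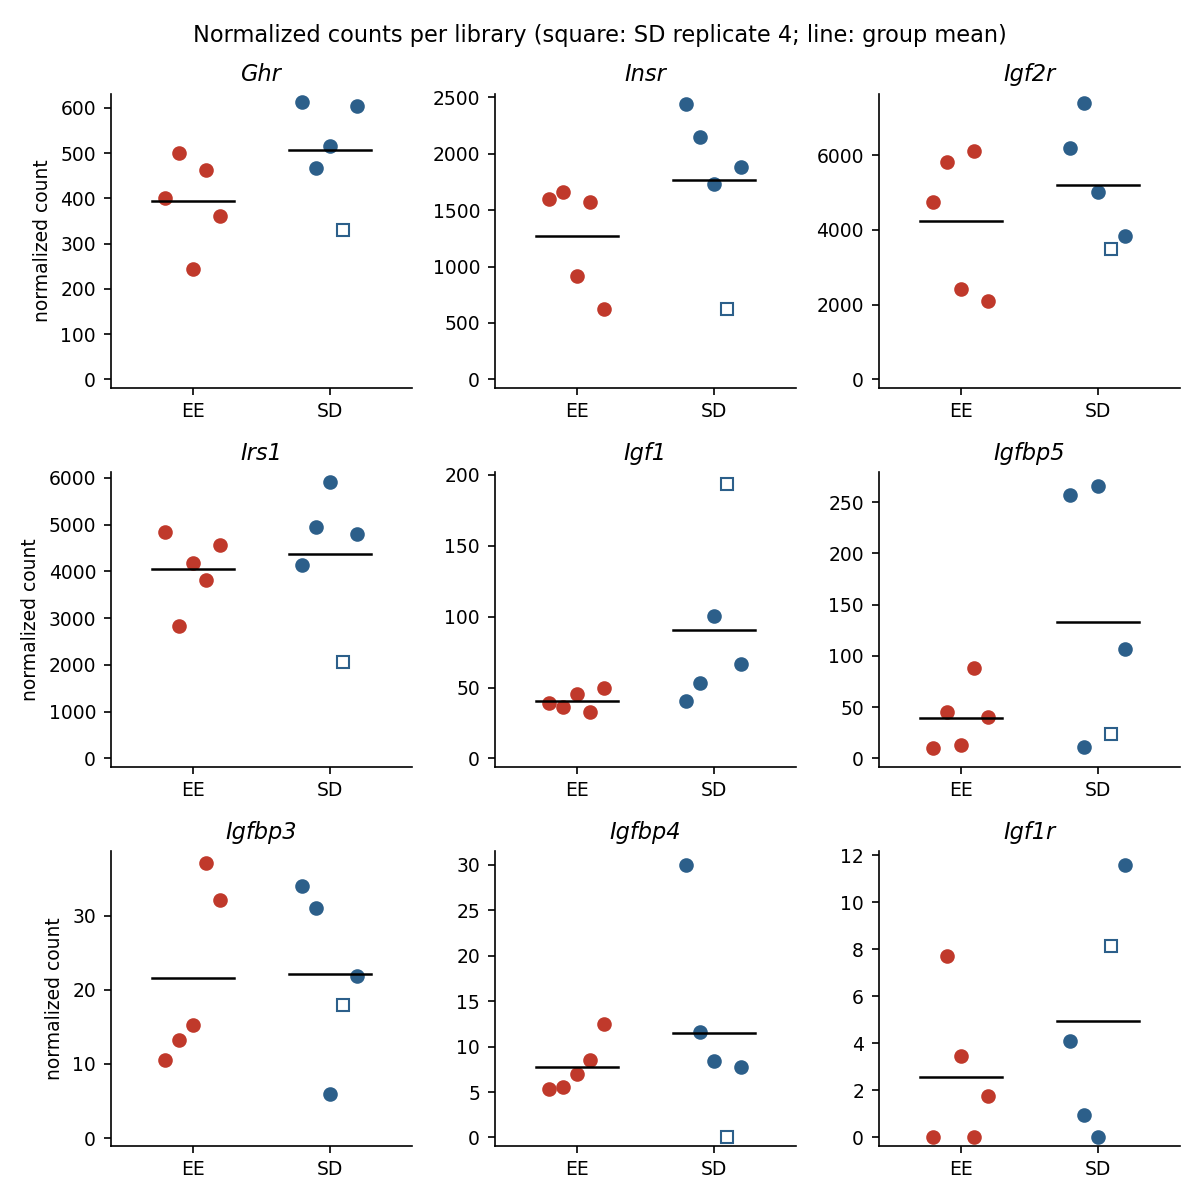
Normalized counts (vertical axis, linear) of the axis genes with reads, 1 panel per gene, with EE libraries left of SD libraries. Each point is a library, the open square is SD replicate 4 and the bar is the group mean. Insr in SD replicate 4, at 622, lies below the other 4 SD libraries, at 1731 to 2442.

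In normalized counts, EE replicates 3 and 5 and SD replicate 4 were the 3 lowest libraries for Ghr, Insr and Igf2r alike. In reads before scaling this held for Insr only. Ghr then had its highest value in EE replicate 5, at 606 reads. Igf2r had 2983 reads in SD replicate 5, against 3473 and 3513 in EE replicates 3 and 5. Of the 12992 genes that varied, 398 (3.06%) had EE replicates 3 and 5 and SD replicate 4 lowest in normalized counts. The pattern was noticed after the values were seen. EE replicates 3 and 5 had the lowest casein shares, at 44.1% and 40.4%, whereas SD replicate 4 had 60.4%. The part of casein share, scaling or library quality in the receptor values was not tested. Insr and Igf2r varied widely, with an SD over the 10 libraries of 0.659 and 0.591 on the log2 scale. Ghr varied by 0.342, and the median of the 6679 genes with at least 300 normalized counts was 0.212 (quartiles 0.158 and 0.305).

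**Figure D2:**
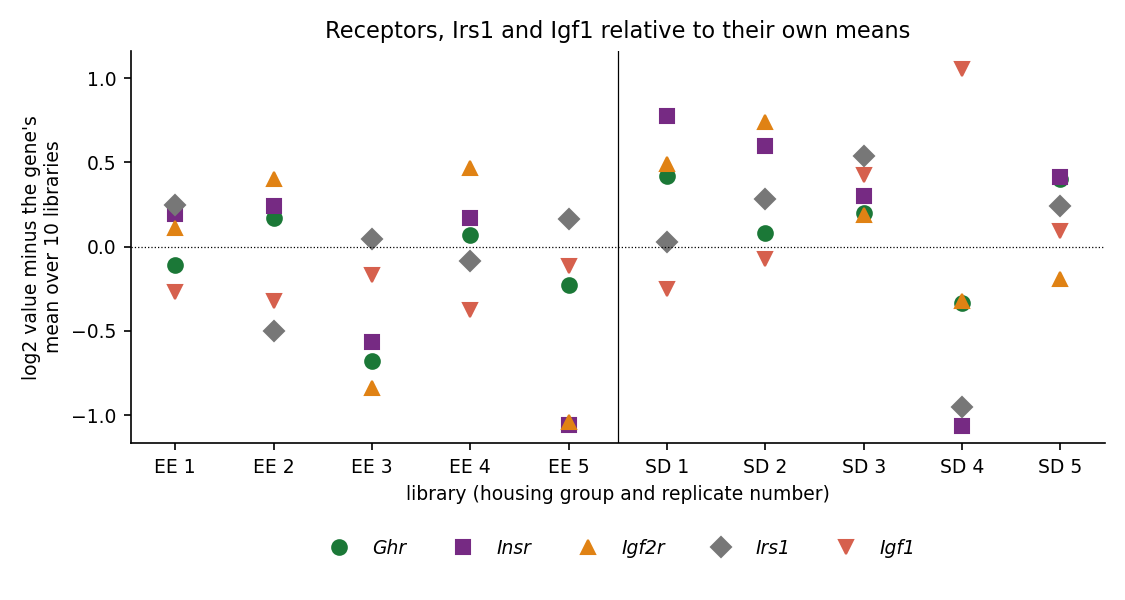
Log2 value of 5 axis genes in each library minus that gene's mean over all 10 libraries (vertical axis, log2 units), with EE libraries left of SD libraries. Ghr, Insr and Igf2r reach their 3 lowest points in EE replicates 3 and 5 and SD replicate 4, whereas Igf1 is highest in SD replicate 4.

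Igf1r, the receptor that carries most IGF-1 signalling (gene ID 25718), was close to the limit of detection. It had 0, 7, 5, 0 and 3 reads in EE replicates 1 to 5, against 3, 1, 0, 5 and 9 reads in SD replicates 1 to 5, so 15 reads in EE libraries and 18 in SD libraries. The log2 difference of -0.14 (SE 0.16, limma adjusted p = 0.886, exact permutation p = 0.437) rests on these 33 reads. It was -0.09 without SD replicate 4, ranged from -0.24 without SD replicate 3 to -0.06 without SD replicate 5 when 1 library was left out, and was -0.68 on log2 of count plus 1 over all 10. A change in Igf1r was not detectable at this depth.

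Irs1, which couples the insulin and IGF-1 receptors to PI3K (gene ID 25467), had 4836, 2839.6, 4186, 3811 and 4555 normalized counts in EE replicates 1 to 5, against 4133, 4949, 5920.5, 2057 and 4799.6 in SD replicates 1 to 5. The lowest value was that of SD replicate 4 and the ranges overlapped. Irs1 averaged 4045 ± 777 normalized counts in EE libraries and 4372 ± 1443 in SD libraries (SD, n = 5 each), a log2 difference of -0.05 (SE 0.24, 95% interval -0.58 to 0.48, limma adjusted p = 0.967, exact permutation p = 0.857). Leaving out EE replicate 2 or SD replicate 3 turned it to 0.07, and without SD replicate 4 it was -0.30 (SE 0.15, limma adjusted p = 0.523, exact permutation p = 0.127).

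Igf1, the ligand (gene ID 24482), had 39.2, 36.0, 45.8, 32.7 and 49.6 normalized counts in EE replicates 1 to 5, against 40.4, 52.9, 100.1, 194 and 66.6 in SD replicates 1 to 5. The EE libraries lay close together, whereas SD replicate 4 held the highest value and SD replicate 1 fell within the EE range. In reads, EE libraries held 250 and SD libraries 339. Igf1 averaged 40.7 ± 6.95 normalized counts in EE libraries and 90.7 ± 61.7 in SD libraries (SD, n = 5 each), a log2 difference of -0.50 (SE 0.22, 95% interval -0.97 to -0.03), and -0.93 (SE 0.41) on log2 of count plus 1. The unadjusted limma p was 0.0389, the exact permutation p was 0.0317 and the limma adjusted p was 0.657. Without SD replicate 4 the SD mean was 65.009 ± 25.7 (SD, n = 4) and the log2 difference was -0.30 (SE 0.15, unadjusted limma p = 0.0732, exact permutation p = 0.0635, limma adjusted p = 0.514). The unadjusted limma p was also above 0.05 when any of EE replicates 1 to 4 or SD replicate 3 was left out, reaching 0.0782 without SD replicate 3.

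Igf1 is known to be made by stromal and immune cells, so their markers stand beside it. Of 11 macrophage markers, Marco was at 0 in every library and Lyz2, a lysozyme of myeloid cells, was the most abundant. Their summed level was 1478, 409.6, 616, 145 and 1023 normalized counts in EE replicates 1 to 5, against 386, 403, 1176, 1776 and 2233 in SD replicates 1 to 5. The sum was high in SD replicates 3, 4 and 5, where Igf1 was highest, but also in EE replicate 1, mostly from Lyz2 (1024 of 1478). C1qb, a complement gene of macrophages, had 8.53 to 50.4 normalized counts in EE libraries, against 8.14, 36.2, 156, 194 and 118 in SD replicates 1 to 5. C1qc, its partner subunit, had 14.9 to 56.8 in EE libraries, against 20.4, 57.8, 113, 179 and 173 in SD replicates 1 to 5. Both were highest in SD replicates 3, 4 and 5, a choice made after their values were seen. C1qa, Csf1r and Aif1 were also highest there, but Lyz2, Cd68, Mrc1, Adgre1 and Cd163 were not. Cd68 had 174 normalized counts in EE replicate 1, against 68.7, 125 and 183 in SD replicates 3, 4 and 5. Mrc1 had 48.4 in EE replicate 1, against 38.7, 21.2 and 59.2 in the same SD libraries. Of 8 fibroblast markers, Col3a1, Dcn, Lum and Pdgfrb were at 0 in every library, and the sum ranged over 377 to 1269 normalized counts in EE libraries, against 397 to 10446 in SD libraries. The highest was that of SD replicate 4, nearly all of it from Fbln1, an extracellular matrix gene. Their part in the Igf1 result was not tested.

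Igfbp5 (gene ID 25285) had 10.6, 45.1, 13.3, 88.2 and 40.5 normalized counts in EE replicates 1 to 5, against 257, 11.7, 266, 24.4 and 107 in SD replicates 1 to 5. SD replicates 1, 3 and 5 stood above every EE library, but SD replicates 2 and 4 did not, and the highest value was 25.1 times the lowest. Igfbp5 averaged 39.5 ± 31.3 normalized counts in EE libraries and 133 ± 123 in SD libraries (SD, n = 5 each), a log2 difference of -0.73 (SE 0.43, limma adjusted p = 0.727, exact permutation p = 0.206). It was -0.96 without SD replicate 4 (SE 0.44, limma adjusted p = 0.484, exact permutation p = 0.111), and without SD replicate 2 it was -1.04 (unadjusted limma p = 0.0221). Without SD replicate 1 or SD replicate 3 it was -0.48 and -0.47, and on log2 of count plus 1 over all 10 libraries it was -1.28. Igfbp5 varied most of the 9 genes, with an SD of 0.861 on the log2 scale over the 10 libraries.

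Igfbp3, the main carrier of IGFs in blood (gene ID 24484), averaged 21.7 ± 12.1 normalized counts in EE libraries and 22.2 ± 11.2 in SD libraries (SD, n = 5 each). Its values ranged from 10.6 to 37.1 in EE libraries, against 6.0 to 34.1 in SD libraries, and the ranges overlapped almost entirely. The log2 difference was -0.01 (SE 0.16, 95% interval -0.37 to 0.35, limma adjusted p = 0.993, exact permutation p = 0.968), and -0.02 without SD replicate 4. Igfbp4 (gene ID 360622), whose product binds IGFs and restrains their action, averaged 7.74 ± 2.94 normalized counts in EE libraries and 11.5 ± 11.1 in SD libraries (SD, n = 5 each), with a log2 difference of -0.03 (SE 0.17, limma adjusted p = 0.974, exact permutation p = 0.817), and -0.19 (SE 0.13) without SD replicate 4. It was highest in SD replicate 1, at 30.0, and had no reads in SD replicate 4. Igfbp2 (gene ID 25662) had 0 reads in all 10 libraries. A count of 0 allows up to 3 reads in a library, which is 1.78 to 4.88 normalized counts, counting error only.

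All 9 tested genes had a lower mean log2 value in EE than in SD libraries, both with all 10 libraries and without SD replicate 4, with a median log2 difference of -0.31 and -0.30. In reads before scaling, EE libraries held more than SD libraries for Ghr (2225 against 2034) and Irs1 (24407 against 18070). The same held for Igf2r (22531 against 21487), Igfbp3 (133 against 90) and Igfbp4 (49 against 47). Insr, Igf1, Igf1r and Igfbp5 had fewer reads in EE. Mean depth was 5.74e+07 reads in EE libraries and 5.23e+07 in SD libraries. Over all genes tested, 52.0% and 50.3% were lower in EE, with a median of -0.0087 and -0.0016. Of the 9, only Igf1 reached an unadjusted limma p of 0.05 with all 10 libraries, against 4.05% of all genes that did so in the lower direction and 3.35% in the higher direction. Of the genes at that threshold 45.3% were higher in EE, a share of 63.7% after quantile normalization and 56.6% after centring each library on its median. Ghr and Insr reached it without SD replicate 4, against 5.24% of all genes lower and 5.15% higher. None of the 9 passed a limma adjusted p of 0.05. Among all genes 0 of 12992 (0.0%) did so with all 10 libraries, while 961 had an unadjusted p under 0.05, and 1 of 12955 (0.00772%) did so without SD replicate 4. The direction of Irs1, Igf2r, Igfbp3 and Igfbp4 turned under other settings.

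**Figure D3:**
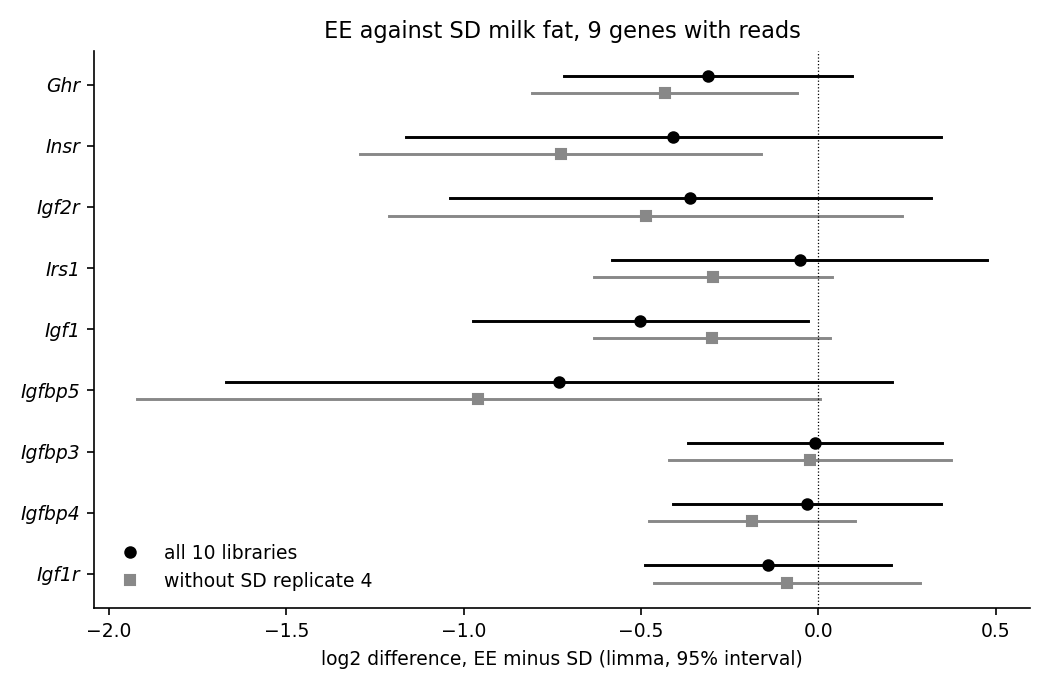
Log2 difference, EE minus SD, of the 9 axis genes with reads (horizontal axis, log2 units), with 95% intervals from limma, for all 10 libraries and without SD replicate 4. With all 10 libraries only the interval of Igf1 excludes 0 (-0.97 to -0.03), and without SD replicate 4 those of Ghr and Insr do.

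The rest of the pathway was read from 7 lists of 95 further genes, of which 85 were in the table, 10 were not analysed here and 79 had reads in at least 1 library. With all 10 libraries 44 of the 79 were lower and 35 higher in EE, with a median log2 difference of -0.02, and without SD replicate 4 the split was 54 lower and 25 higher, with a median of -0.08. Of all genes tested, 52.0% were lower in EE with all 10 libraries and 50.3% without SD replicate 4. At an unadjusted limma p of 0.05, 6 of the 79 were lower and 1 higher, and without SD replicate 4 these counts were 11 and 1. Over all genes the shares were 4.05% lower and 3.35% higher, and 5.24% and 5.15% without SD replicate 4. None passed after adjustment over all genes, the lowest limma adjusted p being 0.506, and 0.233 without SD replicate 4. Growth hormone itself (Gh1), Ghrh, Ghsr, Igfbp1, Stc2 and Insrr were at 0 in every library.

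In the growth hormone signalling list, 4 of 11 tested genes were lower and 7 higher in EE (median log2 difference 0.03), and without SD replicate 4 the counts were 7 and 4 (median -0.03). The most abundant were Stat5a and Stat3, Stat3 being another cytokine-activated factor with a log2 difference of -0.08 (SE 0.13). Stat5a, the transcription factor downstream of the prolactin and growth hormone receptors, averaged 11972 ± 810.3 normalized counts in EE libraries and 10097 ± 1639 in SD libraries (SD, n = 5 each), a log2 difference of 0.26 (SE 0.11). Socs2, a STAT5 target that restrains growth hormone signalling, averaged 85.6 ± 41.7 in EE libraries and 151 ± 53.6 in SD libraries (SD, n = 5 each), a log2 difference of -0.53 (SE 0.22). Leaving out SD replicate 4 took Socs2 above an unadjusted limma p of 0.05, with a log2 difference of -0.41.

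Among receptor adaptors and brakes, 10 of 15 tested genes were lower in EE (median log2 difference -0.08), and 12 of 15 without SD replicate 4 (median -0.15). Gab1, a docking protein that recruits PI3K to activated receptors, was the only listed gene with every EE library (962 to 1074 normalized counts) below every SD library (1174.5 to 1563). It averaged 1024 ± 44.1 in EE libraries and 1328 ± 146 in SD libraries (SD, n = 5 each), a log2 difference of -0.35 (SE 0.092). Grb7, another receptor-binding adaptor, averaged 483 ± 95.2 in EE libraries and 671 ± 142 in SD libraries (SD, n = 5 each), a log2 difference of -0.41 (SE 0.15). Sos1, which activates RAS, and Ptprf, a receptor phosphatase, reached an unadjusted limma p of 0.05 only without SD replicate 4, with log2 differences of -0.26 and -0.62. The most abundant genes of the list were Nedd4, a ubiquitin ligase, and Irs2, another insulin receptor substrate, with log2 differences of -0.08 (SE 0.12) and -0.24 (SE 0.28) over all 10 libraries.

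In the PI3K and AKT list, 12 of 19 tested genes were lower in EE (median log2 difference -0.08), and 15 of 19 without SD replicate 4 (median -0.19). Gsk3b, a kinase that AKT inhibits, averaged 1043 ± 129 normalized counts in EE libraries and 1424 ± 242 in SD libraries (SD, n = 5 each), a log2 difference of -0.41 (SE 0.13). Pik3ca, a catalytic subunit of PI3K, averaged 2995 ± 252.13 in EE libraries and 3490 ± 328 in SD libraries (SD, n = 5 each), a log2 difference of -0.21 (SE 0.091). Foxo4, a transcription factor that AKT keeps out of the nucleus, had a log2 difference of -0.26 (SE 0.11). Akt1 averaged 12288 ± 291 in EE libraries and 11483 ± 1581 in SD libraries (SD, n = 5 each), a log2 difference of 0.11 (SE 0.10), and of 0.02 without SD replicate 4. When SD replicate 4 was left out, Pik3r1, Phlpp1 and Foxo3 were among the genes that also reached an unadjusted limma p of 0.05, with log2 differences of -0.38, -0.23 and -0.41 in that order, and 7 of the 19 did so in all. Gsk3b and Gab1 were also in the study's own list of changed genes, chosen on these samples, and give no independent support to the direction. The study also reported the members Ghr and Igf1 as downregulated by EE, and the same limit holds for them. It used DESeq2 and gave their p-values without marking them as adjusted. Its mean counts matched the 9 libraries without SD replicate 4. In those libraries the unadjusted limma p was 0.0271 for Ghr and 0.0732 for Igf1.

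The other lists held no gene at an unadjusted limma p of 0.05 with all 10 libraries. Of the mTORC1 genes, which sense nutrients and drive protein synthesis, 7 of 14 were lower and 7 higher in EE (median log2 difference 0.02), or 5 lower and 9 higher without SD replicate 4 (median 0.05), and the most abundant, the kinase Mtor and the translation repressor Eif4ebp1, had log2 differences of -0.02 (SE 0.095) and -0.07 (SE 0.13). Of the RAS and ERK genes 3 of 9 were lower, with a median of 0.0069, and without SD replicate 4 the count was 7 of 9, with a median of -0.03. The kinase Map2k2, among its most abundant genes, had a log2 difference of -0.01 (SE 0.10). Of the further IGF ligands, binding proteins and proteases 4 of 6 were lower (median -0.03), a median that was -0.08 without SD replicate 4, -0.24 without EE replicate 2, in which Stc1 was highest, and -0.21 on log2 of count plus 1, with Stc1 and Igfbp7 the most abundant at log2 differences of 0.04 (SE 0.45) and -0.26 (SE 0.28). Of the mannose 6-phosphate sorting genes, which act with Igf2r, 4 of 5 were lower (median -0.0066), or 3 of 5 without SD replicate 4 (median -0.02). The sorting adaptors Gga1 and Gga2 had log2 differences of -0.0066 (SE 0.091) and 0.11 (SE 0.097) over all 10 libraries.

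**Figure D4:**
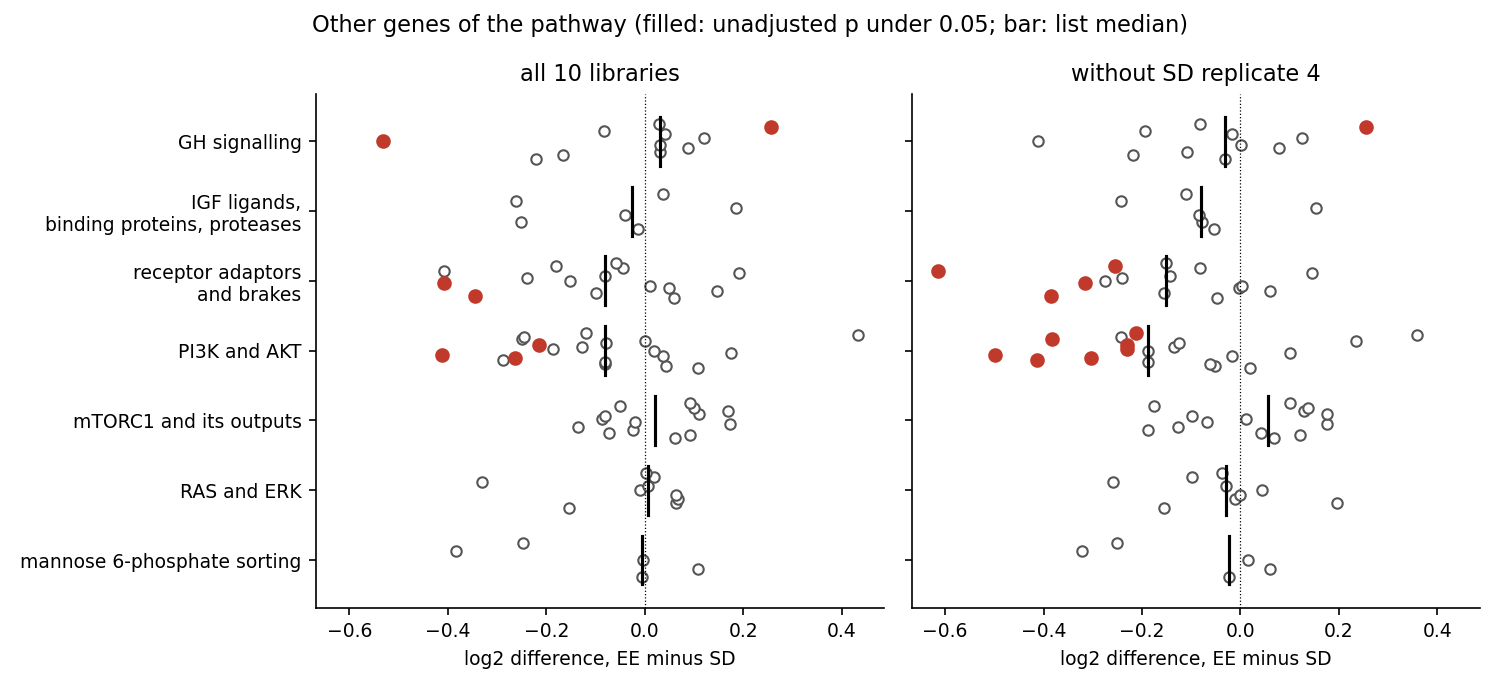
Log2 difference, EE minus SD, of the 79 further pathway genes by list, with all 10 libraries (log2 units, 1 point per gene) and the median of each list. The medians lie between -0.08 and 0.03, and the genes past an unadjusted limma p of 0.05 are Stat5a, Socs2, Grb7, Gab1, Gsk3b, Pik3ca and Foxo4.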

How the data were processed

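Milk fat RNA of P10 was sequenced in 5 EE and 5 SD libraries, grouped by the sample labels. The authors aligned single-end reads of 100 bases to rn6, per the labels and methods, and normalized with DESeq2. The read counter, annotation and filters are not given in the sources used here. The per-library values were deposited by the authors as log2 values described as rlog. All share a lowest value of 5.46, so they were read as variance-stabilized values and inverted to normalized counts. A deposited comparison table gave the authors' mean normalized signal per gene, which matched the 9 libraries without SD replicate 4 (SD of the log2 ratio 0.0220, against 0.0807 for all 10). Its fold changes, statistics and p-values were not used. Of 16748 genes, 16619 IDs were in the RefSeq table (GRCr8), and 3756 genes with 1 value in every library were left out, leaving 12992 (12955 without SD replicate 4).

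A linear model with moderated variances and a mean-variance trend (limma 3.58.1, run under R 4.3.3) was fitted to the log2 values with two-sided tests, and p-values were adjusted by Benjamini-Hochberg over every gene tested. The script was tested on simulated data. Exact permutation tests over 252 arrangements (126 without SD replicate 4) have a smallest two-sided p of 0.00794 (0.0159). Depth was estimated from the worth of 1 read, with 89.5% to 98.1% of low values whole within 0.1 read. P-values measure the spread between libraries, which were taken as independent. Shortly before birth SD dams were moved to single cages, whereas EE dams stayed in their cage, parted by a divider. EE libraries may thus come from dams of the same cage, which was not modelled. Alternatives were each library left out, EE replicates 3 and 5 left out together, a count minimum of 10, log2 of count plus 1, quantile normalization, median centring, library weights, no variance trend and a replicate block. Named genes were all 10 members and, from each list, those at an unadjusted p of 0.05. Other named list genes were among the most abundant or at 0, or were chosen after their values were seen. The members and lists were chosen with earlier results of these data known. Transcript lengths were not used, so levels are not compared between genes. Some results of the gene lists are not reported here.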

Additional observations from a re-analysis of the deposited data

Results flagged for a closer look

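Of 20 groups (the 9 genes with reads and the casein share, each in EE and in SD libraries), 1 held a library far from the others: Insr in SD replicate 4 had 622 normalized counts, against 1731 to 2442 in the other 4 SD libraries. The gap to the nearest library was 0.741 of the group's range on the log2 scale, above the critical value of 0.71 for 5 samples, but 0.609 on the scale of normalized counts, below it. Chance flags about 1 in 20 groups.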

How the results depend on the processing

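For the members with reads, 135 single-gene values under the alternatives kept their direction and side of an unadjusted limma p of 0.05, 8 no longer passed it, 3 newly passed it and 14 changed sign. The sign changes were in 4 genes. Igfbp3, at -0.01 in the comparison of all 10 libraries, was 0.0344 after quantile normalization, 0.0158 after median centring and -0.1182 to 0.0571 leaving out 1 library (5 of 10 changed sign). Igfbp4 was 0.0754 with log2 of count plus 1 and -0.1868 to 0.10 leaving out 1 library (positive without SD replicate 1). Irs1 was -0.2971 to 0.0746 leaving out 1 library, positive without EE replicate 2 or SD replicates 2, 3 or 5. Igf2r was 0.15 without EE replicates 3 and 5. The count of members lower at that p was 1, and became 0 after quantile normalization or without EE replicates 3 and 5, and 0 to 2 leaving out 1 library. The causes were not tested.

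Over all genes the number past a limma adjusted p of 0.05 was 0, became 1 after quantile normalization, and was 0 to 1 leaving out 1 library (1 without SD replicate 2 or SD replicate 4). Genes higher in EE at an unadjusted p of 0.05 numbered 435, 683 after quantile normalization and 292 to 667 leaving out 1 library (667 without SD replicate 4). Genes lower numbered 526, and 333 to 679 leaving out 1 library (333 without EE replicate 3). The difference in casein share was -8.39 percentage points and ranged from -10.9 (without EE replicate 4, where the exact permutation p was 0.0159) to -5.78 leaving out 1 library. Without any library other than EE replicate 4 the exact permutation p was 0.0635 to 0.111. Depth limits Igf1r, Igfbp2 and Igfbp4 most.

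Replicate numbers did not pair the libraries: deviations of same-numbered libraries correlated between -0.09 and 0.28, and 1 of 5 numbers correlated best with itself. With a replicate block the adjusted count stayed at 0, with 698 genes lower and 402 higher at an unadjusted p of 0.05 and 1 member lower, Igf1 (log2 difference -0.50).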

Other observations

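EE replicate 2 stood apart in genes of the pathway lists, singled out after their values were seen. Cish, a STAT5 target that restrains cytokine receptors, had 462 normalized counts in EE replicate 2, against 2963 to 4441 in the other EE libraries and 1870.0 to 4848 in SD libraries. Stc1, stanniocalcin-1, which inhibits the proteases that cut IGF binding proteins, had 465 normalized counts in EE replicate 2, against 31.3 to 43.3 in the other EE libraries and 27.7 to 166 in SD libraries. Irs1 was also lowest among EE libraries in EE replicate 2, at 2839.6 normalized counts.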
